A study of Mus musculus with 19 samples.

Results

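The genes described here are 10 markers and regulators of blood stem and progenitor cells: Kit, Cd34, Flt3, Meis1, Hoxa9, Myb, Sox4, Gata2, Erg and Adgrg1. They were chosen by symbol from a table of 38887 genes, each symbol matched 1 row, and 9 of the 10 passed the filter on low counts that left 12943 genes for testing. Hoxa9 was the one that did not pass. RNA was sequenced from myeloid-derived suppressor cells (MDSC), immature-looking myeloid cells that can restrain T cells. The cells came from mouse spleen and were of 2 kinds: PMN-MDSC, which resemble neutrophils, and M-MDSC, which resemble monocytes. Adult mice were 6 to 8 weeks old and newborn mice were 7 days old. PMN-MDSC were sequenced as 6 libraries from adults and 5 from newborns, and M-MDSC as 3 from adults and 5 from newborns, over 2 batches that each held all 4 groups. One protocol in the labels describes selection of PMN-MDSC on Ly6G beads and another describes CD11b beads followed by sorting of Ly6G+ Ly6C-intermediate cells. M-MDSC were sorted as CD11b+ Ly6C-high Ly6G- cells under both. No treatment is named, and the strain, the sex and the number of mice behind a library are not given in the labels. Nothing in them says that libraries came from separate mice, and the p-values below reflect only how far libraries of a group scatter, which may be technical.

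Blood cells arise from stem cells in the marrow of adults and, around birth, also in the liver and spleen. Stem and early progenitor cells carry the growth factor receptors Kit and Flt3 and the surface proteins Cd34 and Adgrg1. A set of transcription factors, among them Erg, Gata2, Meis1, Hoxa9 and Myb, keeps these cells immature, and most of these genes are turned down as neutrophils and monocytes mature. Some members are also made by other cells: Kit and Gata2 by mast cells, Flt3 by dendritic cells, Erg and Cd34 by endothelial cells, and Sox4 by early lymphoid cells.

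Libraries of batch 1 held 827744 to 2965896 counts and those of batch 2 held 14026193 to 45135933. A count of 3, taken as the limit below which a gene cannot be told from absent, was worth 0.990 to 3.29 CPM (the usual unit of a gene's count relative to the scaled total of its library) in batch 1 and 0.0601 to 0.197 CPM in batch 2. The sort markers followed the labels: Ly6g, the antigen of the PMN-MDSC gate, averaged 19.6 CPM (adult) and 213 CPM (newborn) in PMN-MDSC and 0.277 CPM (adult) and 0.877 CPM (newborn) in M-MDSC. Ccr2, a monocyte chemokine receptor, averaged 552 and 612 CPM in adult and newborn M-MDSC against 14.4 and 4.93 CPM in the PMN-MDSC groups. The Y-linked gene Kdm5d had no count in any of the 9 adult libraries and lay between 1.28 and 20.2 CPM in the 10 newborn libraries, so age and the sex of the mice cannot be told apart here. Each PMN-MDSC library of 1 batch lay closer to a single library of its own group in the other batch (chi-square per degree of freedom 2.41 to 6.55 for the 5 closest pairs, 7.36 to 21.3 for the other 10). If such pairs share a source, each PMN-MDSC group has 3 sources, and calls are therefore also given without the batch 1 PMN-MDSC libraries.

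In PMN-MDSC, Erg, Kit, Adgrg1 and Myb were higher in newborn than in adult mice. Erg differed most, at 119 ± 1.69 CPM (SD, n = 5) in newborn against 3.09 ± 1.35 CPM (SD, n = 6) in adult libraries. With edgeR's quasi-likelihood test and Benjamini-Hochberg adjustment, 4 of the 9 tested members passed an adjusted p of 0.05 as higher and 0 as lower. Over all 12943 genes tested in this comparison, 27.1% were called higher, 20.5% lower and 47.7% in either direction. The ranges of the libraries did not overlap for 5 members that were higher in newborns (those 4 and Cd34) and for 1 that was lower (Flt3). Among all genes tested, 28.4% were higher and 23% were lower without overlap. The median log2 fold change of the 9 members was 1.67, and that of all genes tested was -0.05. In a fit on the 11 PMN-MDSC libraries alone, 6 members were called higher and 2 lower, against 32.5% and 33.4% of 14479 genes (65.9% in either direction).

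In M-MDSC, the same test called Kit, Erg, Adgrg1, Myb and Cd34 higher in newborns, 5 of the 9 members, and none lower. The background was 15.9% of genes called higher, 14.3% lower and 30.2% in either direction. These 5 members were also the ones whose newborn libraries all lay above every adult library, against 12.8% of all genes tested, and no member lay wholly below, against 10.4%. The median log2 fold change was 2.00 for the members and 0.00685 for all genes tested. In a fit on the 8 M-MDSC libraries alone, only Kit and Myb of 8 tested members were called, against 6.15% of 10814 genes called higher and 5.57% lower (11.7% in either direction). In bulk RNA, fewer cells of a type and less RNA in each cell cannot be told apart, here and in every result that follows.

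**Figure D1:**
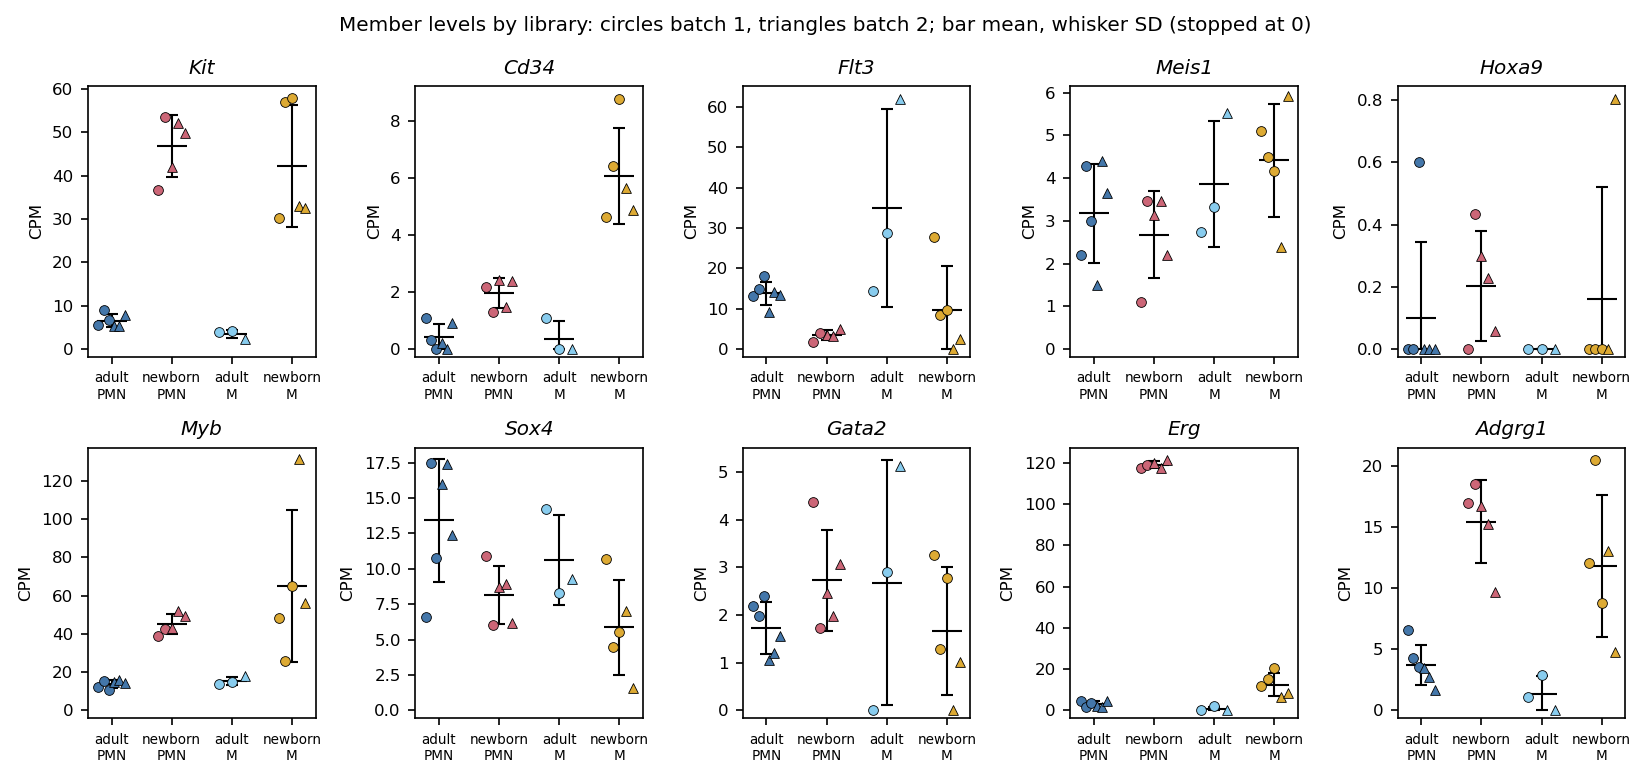
Each panel shows 1 of the 10 members, with the level in CPM of every library on a linear axis from 0 by group, circles for batch 1, triangles for batch 2, a bar for the mean and a whisker for the SD (stopped at 0). The newborn libraries lie above all adult libraries of the same cell type for Kit, Erg, Myb, Adgrg1 and Cd34, Flt3 is lower in newborn PMN-MDSC, and Hoxa9 is at or near 0 in all groups.

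Promoter sequences are shown for the 4 members that were called higher in newborns in both cell types, since these carry the common part of the age difference. They are RefSeq sequences of build GRCm38.p6, from 250 bases before to 50 bases after an annotated transcription start, written 5′ to 3′ on the strand of the gene. Capitals mark matches, on either strand, to 4 short motifs: GGAAG for ETS factors (the family of Erg and Fli1), AGATAA for GATA factors, AACTG for Myb and TGACAG for Meis factors. All 10 members were found in the promoter table, with 15 starts between them. Erg has 3 starts there, on the minus strand at chr16:95586544-95586843, chr16:95530316-95530615 and chr16:95459299-95459598. The Kit window is chr5:75574737-75575036 on the plus strand, and a second annotated start lies 4 bases further on. The Myb window is chr10:21160935-21161234 on the minus strand. The 2 Adgrg1 windows are chr8:94976859-94977158 and chr8:94984149-94984448 on the plus strand.
Erg start 1: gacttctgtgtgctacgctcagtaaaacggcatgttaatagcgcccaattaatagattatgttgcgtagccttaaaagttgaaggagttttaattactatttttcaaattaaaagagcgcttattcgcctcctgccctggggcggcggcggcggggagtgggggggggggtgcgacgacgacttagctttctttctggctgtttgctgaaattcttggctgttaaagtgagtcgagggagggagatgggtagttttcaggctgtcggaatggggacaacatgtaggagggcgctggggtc
Erg start 2: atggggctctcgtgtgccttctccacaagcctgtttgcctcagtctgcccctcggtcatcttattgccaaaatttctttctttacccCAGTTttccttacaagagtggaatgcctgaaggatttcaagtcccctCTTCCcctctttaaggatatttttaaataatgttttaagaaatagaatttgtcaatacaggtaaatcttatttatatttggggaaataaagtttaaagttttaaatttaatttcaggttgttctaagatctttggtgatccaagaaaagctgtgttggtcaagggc
Erg start 3: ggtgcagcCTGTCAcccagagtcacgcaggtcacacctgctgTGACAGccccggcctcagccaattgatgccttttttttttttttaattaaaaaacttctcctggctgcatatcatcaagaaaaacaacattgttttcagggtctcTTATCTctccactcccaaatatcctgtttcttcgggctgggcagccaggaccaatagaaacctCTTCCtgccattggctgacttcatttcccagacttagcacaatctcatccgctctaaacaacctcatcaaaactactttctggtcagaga
Kit: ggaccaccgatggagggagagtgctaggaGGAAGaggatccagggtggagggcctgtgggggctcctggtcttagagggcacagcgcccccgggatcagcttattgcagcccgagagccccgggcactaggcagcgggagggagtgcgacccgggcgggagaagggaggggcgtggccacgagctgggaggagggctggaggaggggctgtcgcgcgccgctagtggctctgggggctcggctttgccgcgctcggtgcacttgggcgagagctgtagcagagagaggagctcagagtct
Myb: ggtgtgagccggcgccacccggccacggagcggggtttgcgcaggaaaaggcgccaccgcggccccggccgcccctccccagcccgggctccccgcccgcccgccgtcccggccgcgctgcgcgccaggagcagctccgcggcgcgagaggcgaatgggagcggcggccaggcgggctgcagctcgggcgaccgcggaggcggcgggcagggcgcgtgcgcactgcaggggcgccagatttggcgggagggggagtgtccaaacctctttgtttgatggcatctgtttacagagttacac
Adgrg1 start 1: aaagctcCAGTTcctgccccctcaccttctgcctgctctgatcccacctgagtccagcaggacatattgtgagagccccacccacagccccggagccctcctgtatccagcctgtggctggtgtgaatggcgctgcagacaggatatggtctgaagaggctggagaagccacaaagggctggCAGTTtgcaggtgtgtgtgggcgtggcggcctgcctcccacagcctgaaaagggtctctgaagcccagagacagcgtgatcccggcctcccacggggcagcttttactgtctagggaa
Adgrg1 start 2: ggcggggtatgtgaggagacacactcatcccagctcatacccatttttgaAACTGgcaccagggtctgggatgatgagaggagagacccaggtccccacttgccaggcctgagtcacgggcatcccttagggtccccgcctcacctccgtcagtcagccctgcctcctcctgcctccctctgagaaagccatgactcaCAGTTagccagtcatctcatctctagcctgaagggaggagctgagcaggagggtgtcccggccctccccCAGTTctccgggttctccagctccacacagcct

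The third Erg window held 2 matches to TGACAG, 1 to AGATAA and 1 to GGAAG, the second held 1 match to GGAAG and 1 to AACTG, and the first held no match. Kit had 1 match to GGAAG, Myb had no match, and the Adgrg1 windows held 2 and 3 matches to AACTG. Over the 15 member windows, GGAAG was present in 9, AACTG in 4, AGATAA in 1 and TGACAG in 1. Among all 32851 promoter windows of this length, 71.4% held GGAAG, 44.8% held AACTG, 11.2% held AGATAA and 19.2% held TGACAG. These matches describe letters only, and since counts are per gene, the start in use in these cells is not known.

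Kit encodes the receptor for stem cell factor, a tyrosine kinase that sustains stem cells, early progenitors and mast cells (ENSMUSG00000005672, chr5:75574916-75656722, plus strand, GRCm38). In adult PMN-MDSC its level ran from 5.18 to 8.91 CPM with a median of 6.04. The 5 newborn PMN-MDSC libraries held 36.7, 53.6, 42.1, 52.1 and 49.9 CPM. Adult M-MDSC held 3.84, 4.15 and 2.30 CPM, and newborn M-MDSC held 30.2, 57.1, 57.9, 33.1 and 32.5 CPM. Every newborn library of either cell type was thus above every adult library, and the 2 adult groups did not overlap with each other either. Kit was 7.23-fold higher in newborn PMN-MDSC (log2 2.85 ± 0.226 SE, edgeR adjusted p = 7.38e-09). In newborn M-MDSC it was 12.96-fold higher (log2 3.70 ± 0.324 SE, edgeR adjusted p = 1.68e-07). Within batch 1 the log2 differences were 2.60 and 3.56, and within batch 2 they were 3.04 and 3.88, for PMN-MDSC and M-MDSC in that order. Batch 2 holds 1 adult M-MDSC library, whose spread is assumed to be that of the other groups. Kit kept its call in both cell types under all 31 alternative settings tried.

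Flt3 encodes the receptor for Flt3 ligand, a tyrosine kinase of multipotent and lymphoid progenitors that is also needed for dendritic cells (ENSMUSG00000042817, chr5:147330741-147400489, minus strand). Its group means were higher in adults. Adult PMN-MDSC held 9.25 to 18.0 CPM with a median of 13.7, and newborn PMN-MDSC held 1.64, 3.89, 3.33, 3.23 and 4.93 CPM, with no overlap. Adult M-MDSC held 14.3, 28.6 and 62.1 CPM and newborn M-MDSC held 27.9, 8.34, 9.73, 0.0469 and 2.42 CPM, so these groups overlapped through newborn replicate 1. The difference was not called in PMN-MDSC (log2 -1.85 ± 0.758 SE, edgeR adjusted p = 0.0519) or in M-MDSC (log2 -2.22 ± 0.913 SE, edgeR adjusted p = 0.0753). The fit on PMN-MDSC libraries alone gave the same size with an edgeR adjusted p of 1.36e-05 (log2 -1.86). Over the 31 alternatives, Flt3 was called lower in newborns in 10 for PMN-MDSC and in 5 for M-MDSC. In the newborn M-MDSC libraries of batch 2 (0.0469 and 2.42 CPM) Flt3 was below all 3 of batch 1 (8.34 to 27.9 CPM), while in adult M-MDSC the single batch 2 library was the highest.

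Dendritic cell genes were read beside Flt3 in the same libraries. The summed level of 10 dendritic cell genes was 231 to 243 CPM in PMN-MDSC of adults and 53.6 to 65.9 CPM in those of newborns, and 182 to 209 CPM in adult and 15.7 to 115 CPM in newborn M-MDSC. In PMN-MDSC and in M-MDSC alike, 3 of the 10 were called lower in newborns and 0 higher, beside 20.5% and 14.3% of all genes called lower. They were Tcf4, a factor of plasmacytoid dendritic cells, Itgax, which encodes CD11c, and Cd209a. In PMN-MDSC, Tcf4 was at log2 -2.40 (edgeR adjusted p = 0.000171) and Itgax at log2 -2.33 (edgeR adjusted p = 0.00207). Within adult M-MDSC, replicate 28 had the highest Flt3 (62.1 CPM) and the lowest dendritic sum (182 CPM). Within newborn M-MDSC, replicate 1 had the highest Flt3 (27.9 CPM) and the highest dendritic sum (115 CPM). Replicate 77 had the lowest of both there (0.0469 and 15.7 CPM). No dendritic cell gene of the list was at 0 in any whole group, and their part in the Flt3 values was not tested. The ligand gene Flt3l did not pass the test, at 15.3 CPM in newborn and 14.2 CPM in adult PMN-MDSC (log2 0.11, edgeR adjusted p = 0.854).

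Cd34 encodes a surface sialomucin of stem cells, early progenitors, mast cells and endothelium (ENSMUSG00000016494, chr1:194938819-194961279, plus strand). The annotated gene Gm16897 overlaps it on the opposite strand, and no source says whether counting used strand, so reads of the pair could not be told apart. Adult PMN-MDSC held 0 to 1.10 CPM, from 29 counts in 4 of 6 libraries. Newborn PMN-MDSC held 2.19, 1.30, 2.43, 1.47 and 2.38 CPM, all above the adult range. Adult M-MDSC held 1.10, 0 and 0 CPM, which is 2 counts in all, and newborn M-MDSC held 4.64, 6.41, 8.80, 5.67 and 4.87 CPM. The pooled newborn to adult ratio in M-MDSC was 58.3, with a 95% exact interval of 16.0 to 483.9 that covers counting error only. The difference passed the test in M-MDSC (means of 6.08 and 0.366 CPM, log2 4.90 ± 1.54 SE, edgeR adjusted p = 0.0216) and narrowly missed it in PMN-MDSC (log2 2.39 ± 0.970 SE, edgeR adjusted p = 0.0506). The M-MDSC call was kept in 25 of 31 alternatives and lost, for example, without adult replicate 3 (edgeR adjusted p = 0.0754), without adult replicate 28 (0.0702) or without newborn replicate 3 (0.0528). Leaving out 1 library gave log2 values from 3.59 (adult replicate 28) to 9.25 (adult replicate 1, the one with counts).

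Adgrg1 encodes an adhesion receptor coupled to G proteins, also known as Gpr56, of stem cells, early progenitors and cytotoxic lymphocytes (ENSMUSG00000031785, chr8:94974751-95014217, plus strand). Adult PMN-MDSC held 1.68 to 6.58 CPM with a median of 3.54, and newborn PMN-MDSC held 17.0, 18.6, 16.8, 15.2 and 9.74 CPM. Adult M-MDSC held 1.10, 2.91 and 0 CPM, and newborn M-MDSC held 12.1, 20.5, 8.80, 13.1 and 4.79 CPM. No newborn library overlapped with the adult ones of its cell type. Adgrg1 was 4.74-fold higher in newborn PMN-MDSC (SE 0.560 on the log2 scale, edgeR adjusted p = 0.00277). In newborn M-MDSC it was 13.4-fold higher (log2 3.74 ± 0.861 SE, edgeR adjusted p = 0.00289), a fold that rests on 9 adult counts. Without adult M-MDSC replicate 28 that log2 difference was 2.72, and without adult M-MDSC replicate 3 it was 5.80. Without the batch 1 PMN-MDSC libraries the PMN-MDSC call was lost (log2 2.46, edgeR adjusted p = 0.0697). In the fit on M-MDSC libraries alone the M-MDSC call was lost (log2 3.85, edgeR adjusted p = 0.115). Of 6 tested genes of NK cells, another source of Adgrg1, 2 were called lower in newborn PMN-MDSC, 4 were called lower in newborn M-MDSC and 0 were called higher. Among all genes tested, 20.5% and 14.3% were called lower in PMN-MDSC and M-MDSC, and 27.1% and 15.9% higher. The 8 listed NK genes summed to 10.96 to 35.3 CPM in PMN-MDSC of adults and 3.03 to 7.66 CPM in those of newborns, and to 34.0 to 58.9 CPM in adult and 0 to 7.01 CPM in newborn M-MDSC.

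Erg encodes an ETS-family transcription factor required by stem cells, megakaryocytes and endothelium (ENSMUSG00000040732, chr16:95359169-95586593, minus strand). Its levels in newborn PMN-MDSC were nearly constant, at 118, 119, 119.8, 117 and 121 CPM. Adult PMN-MDSC held 1.65 to 4.78 CPM with a median of 2.95. Adult M-MDSC held 0, 2.08 and 0 CPM, from 5 counts in 1 library, and newborn M-MDSC held 11.6, 15.4, 20.4, 6.38 and 8.66 CPM. The newborn PMN-MDSC libraries thus stood above every other library, and newborn M-MDSC stood above both adult groups. Erg was 39.3-fold higher in newborn than in adult PMN-MDSC (log2 5.30 ± 0.454 SE, edgeR adjusted p = 2.06e-08), the largest fold among the members in this comparison. In M-MDSC it was 34.2-fold higher (SE 0.820 on the log2 scale, edgeR adjusted p = 0.000128), a fold that rests on those 5 adult counts. It was log2 3.45 without adult M-MDSC replicate 28 and 10.1 without replicate 3, the library that holds them. Within batch 1 and batch 2 the PMN-MDSC log2 differences were 5.33 and 5.41, and Erg kept this call under all 31 alternatives. The M-MDSC call was kept in 30, and was lost in the fit on M-MDSC libraries alone (log2 4.84, edgeR adjusted p = 0.0609). The 11 neutrophil genes listed as markers summed to 97980 to 109100 CPM (newborn) and 9385 to 10120 CPM (adult) in PMN-MDSC, with 9 called higher and 1 lower. In M-MDSC, which the sort takes as Ly6G-, they summed to 663 to 1140 CPM in adults and 3166 to 14570 CPM in newborns, with 8 called higher and 0 lower. Over all genes, 27.1% were called higher and 20.5% lower in PMN-MDSC, and 15.9% and 14.3% in M-MDSC. Newborn M-MDSC replicates 2 and 3 had the highest neutrophil sums (14570 and 12380 CPM) and the highest Erg, and replicate 77 had the lowest of both. The part of neutrophil RNA in the Erg values was not tested.

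Myb encodes a transcription factor of dividing progenitors of all blood lineages (ENSMUSG00000019982, chr10:21124935-21160984, minus strand, overlapped on the opposite strand by Gm26577). Adult PMN-MDSC held 10.8 to 15.8 CPM with a median of 14.5, and newborn PMN-MDSC held 38.9, 42.8, 43.2, 52.1 and 49.4 CPM. Adult M-MDSC held 13.7, 14.9 and 18.0 CPM, and newborn M-MDSC held 48.3, 25.7, 64.9, 131 and 55.9 CPM. All newborn libraries were above all adult libraries of either cell type, and newborn M-MDSC were the most scattered, with replicate 77 the highest. Myb was 3.17-fold higher in newborn PMN-MDSC (log2 1.67 ± 0.250 SE, edgeR adjusted p = 2.03e-05). In newborn M-MDSC it was 4.01-fold higher (log2 2.00 ± 0.323 SE, edgeR adjusted p = 0.000129). Within batch 1 the log2 differences were 1.63 and 1.68, and within batch 2 they were 1.76 and 2.41, for PMN-MDSC and M-MDSC in that order, the last with 1 adult M-MDSC library. Myb kept its call in both cell types under all 31 alternatives.

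**Figure D2:**
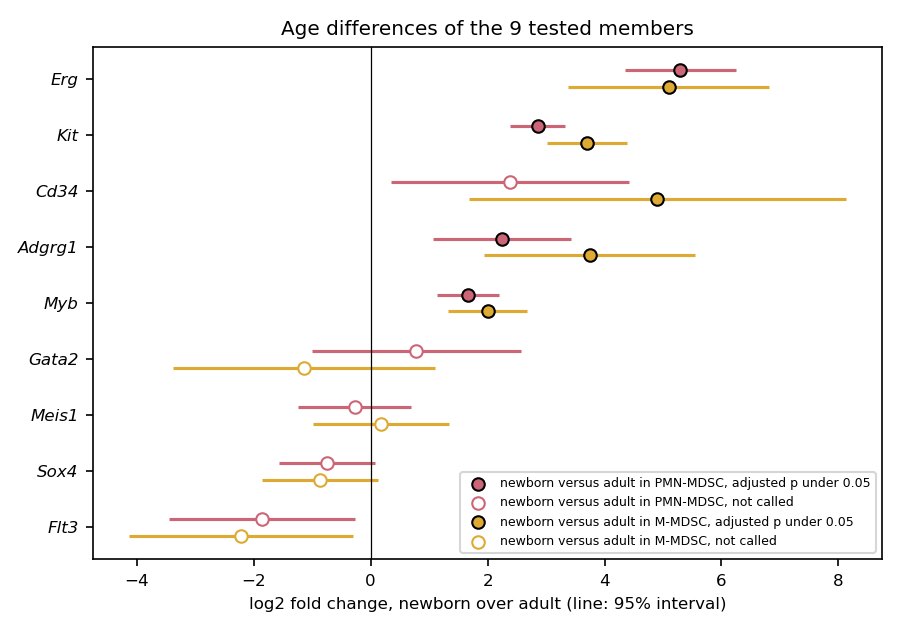
The plot gives the log2 fold change of newborn over adult (horizontal axis) for the 9 tested members in PMN-MDSC and M-MDSC, with lines for 95% intervals and filled points for an edgeR adjusted p under 0.05. Erg lies furthest to the right in both cell types, Kit lies at 2.85 and 3.70, while Meis1 lies at -0.27 and 0.17 with intervals across 0.

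The other 4 transcription factors gave no call for age in either cell type. Meis1, a partner of Hox proteins in stem cells (ENSMUSG00000020160, chr11:18879817-19018985, minus strand, overlapped by Gm16140 and Gm37818), held 1.51 to 4.41 CPM in PMN-MDSC of adults and 1.09 to 3.46 CPM in those of newborns. In M-MDSC it held 2.74, 3.32 and 5.53 CPM in adults and 2.39 to 5.92 CPM in newborns. All 4 groups overlapped, and the log2 differences were -0.27 in PMN-MDSC (95% interval -1.24 to 0.70, edgeR adjusted p = 0.656) and 0.17 in M-MDSC (-0.99 to 1.33, edgeR adjusted p = 0.854). A p that misses the threshold does not show equal levels.

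Hoxa9, a homeobox factor of stem and myeloid progenitor cells (ENSMUSG00000038227, chr6:52223100-52231089, minus strand, with Mir196b inside it on the same strand), was near the limit of detection. It had 1 count over the 6 adult PMN-MDSC libraries (0.600 CPM in replicate 3) and 15 counts over the newborn ones, from 0 to 0.432 CPM. The 3 adult M-MDSC libraries had 0 counts, where 3 counts over the group would be 0.139 CPM. In newborn M-MDSC all 20 counts came from replicate 79 (0.805 CPM). The pooled newborn to adult ratio in PMN-MDSC was 21.2, with a 95% exact interval of 3.26 to 892.7. That pooled ratio rests on 1 adult count in a shallow library, and the group means were 0.203 CPM (newborn) and 0.09997 CPM (adult). In M-MDSC the pooled newborn level was at least 2.77-fold higher than the adult limit of 3 counts over the group, through that 1 library. With no filter on low counts, Hoxa9 was not called in PMN-MDSC (log2 2.41 ± 1.81 SE, edgeR adjusted p = 0.363) or M-MDSC (0.301) among 23414 genes.

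Sox4, a factor of early lymphoid and other progenitors (ENSMUSG00000076431, chr13:28948919-28953713, minus strand, overlapped on the opposite strand by Gm26735), averaged lower in newborns without a call. Adult PMN-MDSC held 6.58 to 17.5 CPM and newborn ones 6.05 to 10.9 CPM, with overlap (log2 -0.75 ± 0.391 SE, edgeR adjusted p = 0.124). Adult M-MDSC held 14.3, 8.30 and 9.27 CPM and newborn ones 1.61 to 10.7 CPM (log2 -0.86 ± 0.472 SE, edgeR adjusted p = 0.182). The fit on PMN-MDSC libraries alone called Sox4 lower in newborns (log2 -0.82, edgeR adjusted p = 0.00534). The summed level of 12 B cell and B cell progenitor genes was 1911 to 2858 CPM in PMN-MDSC of adults and 265.5 to 411 CPM in those of newborns. Of 8 tested, 6 were called lower there, beside 20.5% of all genes. The part of these B cell genes in the Sox4 values was not tested.

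Gata2, a zinc-finger factor of stem cells, mast cells and basophils (ENSMUSG00000015053, chr6:88193891-88207032, plus strand), was low in all groups. It held 1.05 to 2.40 CPM in PMN-MDSC of adults and 1.73 to 4.38 CPM in those of newborns (log2 0.78 ± 0.852 SE, edgeR adjusted p = 0.477). Adult M-MDSC held 0, 2.91 and 5.13 CPM and newborn M-MDSC held 3.25, 1.28, 2.78, 0 and 1.01 CPM (log2 -1.14 ± 1.06 SE, edgeR adjusted p = 0.456). The groups overlapped in both cell types. In the fit on PMN-MDSC libraries alone, Gata2 was called higher in newborns (log2 0.83, edgeR adjusted p = 0.0412).

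**Figure D3:**
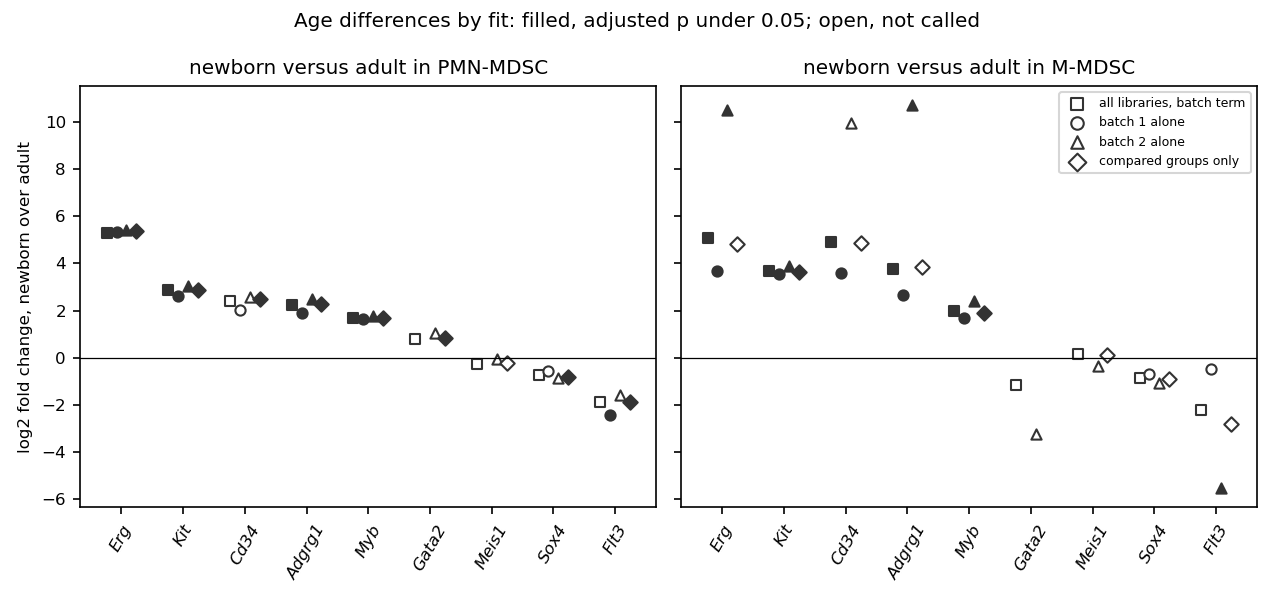
The log2 fold change of newborn over adult (vertical axis) is shown per member under 4 fits: all libraries with a batch term, batch 1 alone, batch 2 alone, and the compared groups alone, with filled points called by edgeR and no point where a gene did not pass the filter. Kit, Erg, Adgrg1 and Myb are filled in every PMN-MDSC fit and Kit and Myb in every M-MDSC fit, and the batch 2 M-MDSC values of Erg, Cd34 and Adgrg1 rest on 1 adult library with 0 counts, so their height depends on the prior count.

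Whether age acted differently in the 2 cell types was tested as a difference of the age effects, M-MDSC minus PMN-MDSC. None of the 9 members was called by edgeR, where 18.1% of all genes were, and DESeq2 and limma-voom also called 0. At an unadjusted p of 0.05, edgeR gave 1 of 9 against 31% of all genes. That member was Kit, whose age effect was larger in M-MDSC by 0.84 ± 0.369 SE on the log2 scale (edgeR adjusted p = 0.126). The 95% intervals of the difference were -3.24 to 2.83 for Erg, -0.55 to 3.55 for Adgrg1, -1.24 to 6.27 for Cd34 and -0.49 to 1.16 for Myb. They are wide for Erg and Cd34, whose adult M-MDSC libraries held 5 and 2 counts.

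Between the cell types, Erg was lower in M-MDSC than in PMN-MDSC at both ages and Kit was lower in adults. In newborns Erg averaged 12.5 ± 5.56 CPM (SD, n = 5) in M-MDSC against 119 CPM in PMN-MDSC, 11.2-fold lower (log2 -3.48 ± 0.453 SE, edgeR adjusted p = 6.19e-06). Erg was the only member called there, against 23.4% of genes called lower, 18.7% higher and 42% in either direction, and it kept this call under all 31 alternatives. Its ranges did not overlap, as for 22.5% of genes that were lower. Cd34 ranges did not overlap either, with higher values in newborn M-MDSC (16% of genes), at log2 1.49 ± 0.944 SE with an edgeR adjusted p of 0.220. Myb was higher in newborn M-MDSC by 0.58 ± 0.250 SE on the log2 scale with an edgeR adjusted p of 0.0722 and overlapping ranges. A fit on the newborn libraries alone called 2 members, Erg as lower and Cd34 as higher in M-MDSC, against 22.2% of genes lower and 22.9% higher (45% in either direction).

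In adults, Kit (log2 -1.10 ± 0.304 SE, edgeR adjusted p = 0.0108) and Erg (log2 -3.28 ± 0.864 SE, edgeR adjusted p = 0.00806) were lower in M-MDSC, 2 of 9 members against 12.5% of genes called lower, 16.7% higher and 29.1% in either direction. Of the 9, only Kit had ranges that did not overlap, as 15.7% of genes did in that direction and 14% in the other. Adgrg1 (log2 -2.11, edgeR adjusted p = 0.0661) and Flt3 (log2 1.43, edgeR adjusted p = 0.188) were not called. The Kit and Erg calls depended on adult M-MDSC replicate 28: without it they had log2 -0.86 and -1.60, with edgeR adjusted p of 0.141 and 0.186. A fit on the adult libraries alone called neither, and called Flt3 as higher in M-MDSC (log2 1.40, edgeR adjusted p = 0.0302), 1 of 7 members against 15% of genes higher and 10.7% lower (25.7% in either direction). Cd34 counts were 2 in adult M-MDSC and 29 in adult PMN-MDSC, a pooled ratio of 0.312 with an exact 95% interval of 0.0360 to 1.23.

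Set per kilobase of exon (FPKM), which allows genes to be compared, the members ranked differently in each group. Sox4 (2.80 FPKM) and Flt3 (2.23 FPKM) had the highest group means in adult PMN-MDSC, and Erg (34.3 FPKM), Kit (5.26 FPKM) and Myb (5.07 FPKM) had the highest in newborn PMN-MDSC. The highest in adult M-MDSC were Flt3 (5.67 FPKM) and Sox4 (2.21 FPKM), and in newborn M-MDSC they were Myb (7.30 FPKM), Kit (4.73 FPKM) and Erg (3.60 FPKM). Hoxa9 and Cd34 stayed below 1 FPKM in all groups, as did Gata2 and Meis1. Cd34, the classical surface marker of this compartment, reached 0.834 FPKM in newborn M-MDSC.

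**Figure D4:**
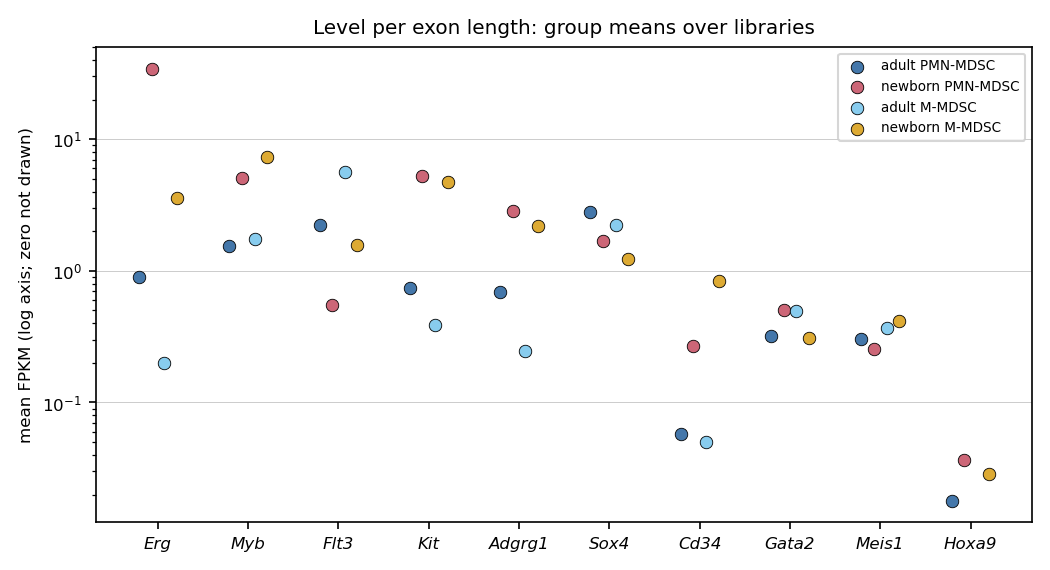
Each point is the mean FPKM over the libraries of a group on a log axis, for each of the 10 members (a mean of 0 is not drawn). Erg in newborn PMN-MDSC, at 34.3 FPKM, is the highest point, and Hoxa9, at up to 0.0365 FPKM, is the lowest member.

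Among 20 tested ligands and close partners of the members, 9 were called higher and 0 lower in newborn PMN-MDSC, and 4 higher and 2 lower in newborn M-MDSC. All genes tested gave 27.1% higher and 20.5% lower in PMN-MDSC, and 15.9% and 14.3% in M-MDSC. The M-MDSC counts of the partners were thus near the shares over all genes. The median log2 fold change of these partners was 0.302 and 0.184, in that order. Kitl, the ligand of Kit, held 1.87 CPM in newborn and 3.39 CPM in adult PMN-MDSC (log2 -0.93 ± 0.701 SE, edgeR adjusted p = 0.303). It had no count in any of the 8 M-MDSC libraries, so its pooled level was at least 34.1-fold higher in PMN-MDSC than in M-MDSC in adults (edgeR adjusted p = 0.00255) and at least 38.2-fold higher in newborns (edgeR adjusted p = 0.000444), against 3 counts over the M-MDSC group.

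Erg acts in stem cells together with a group of factors that bind the same enhancers: Fli1, Runx1, Gata2, Tal1, Lyl1 and Lmo2. Of these, Tal1 was higher in newborn PMN-MDSC (20.4 against 2.43 CPM, log2 2.97 ± 0.576 SE, edgeR adjusted p = 0.000315), as was Lyl1 (179 against 54.6 CPM, log2 1.70 ± 0.270 SE, edgeR adjusted p = 3.78e-05). Fli1, the closest relative of Erg, was higher by less (239 against 159 CPM, log2 0.57 ± 0.170 SE, edgeR adjusted p = 0.00963). Runx1 (log2 0.27, edgeR adjusted p = 0.259) and Lmo2 (log2 0.34, edgeR adjusted p = 0.175) were not called. In M-MDSC, Tal1 was called (edgeR adjusted p = 0.00122, 278 counts in newborn against 2 in adult libraries, pooled ratio 57.7 with an exact 95% interval of 15.8 to 478.8), and Fli1, Runx1, Lyl1 and Lmo2 were not. For Lyl1 the age effect itself differed between the cell types, by -1.43 ± 0.413 SE on the log2 scale (edgeR adjusted p = 0.0204). Gata1, the erythroid and megakaryocyte relative of Gata2, held 9.27 CPM in newborn and 0.345 CPM in adult PMN-MDSC (log2 4.31 ± 1.10 SE, edgeR adjusted p = 0.00331). In M-MDSC it had 22 counts in newborn and 2 in adult libraries (edgeR adjusted p = 0.202).

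A partner of the Hox and Meis proteins and a relative of Myb also differed with age. Pbx2, which binds DNA with Hox and Meis proteins, was higher in newborns in PMN-MDSC (log2 1.33, edgeR adjusted p = 2.7e-06) and in M-MDSC (log2 1.07, edgeR adjusted p = 0.000819). Mybl2, the relative of Myb expressed in dividing cells, was higher in newborn PMN-MDSC (log2 1.90, edgeR adjusted p = 1.27e-06) and in newborn M-MDSC (log2 3.70, edgeR adjusted p = 1.09e-07). Meis3 was lower in newborn M-MDSC (log2 -4.19, edgeR adjusted p = 0.00263). Hoxa10 had no count in any library.

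Other genes of stem cells and multipotent progenitors did not share 1 direction. Of 30 listed, 14 could be tested, and in newborn PMN-MDSC 4 were called higher and 5 lower, in newborn M-MDSC 2 higher and 7 lower. The background was 27.1% of genes called higher and 20.5% lower in PMN-MDSC, and 15.9% and 14.3% in M-MDSC. The counts of higher genes in this list were thus near the shares over all genes, and those of lower genes were above them. The median log2 fold changes of the 14 were -0.381 in PMN-MDSC and -0.715 in M-MDSC. Summed over the 30, they reached 522 to 654 CPM in newborn and 705 to 793 CPM in adult PMN-MDSC. In M-MDSC they reached 417 to 468 CPM in newborns and 681 to 781 CPM in adults. Prom1, the stem cell antigen CD133, was higher in newborns in PMN-MDSC (128 against 5.65 CPM, log2 4.45 ± 0.277 SE, edgeR adjusted p = 3.37e-10) and in M-MDSC (log2 2.57, edgeR adjusted p = 2.71e-05). Hlf, a stem cell transcription factor, held 17.5 CPM in newborn and 0.944 CPM in adult PMN-MDSC (log2 4.16 ± 0.838 SE, edgeR adjusted p = 0.000601). In M-MDSC, Hlf had 117 counts in newborn and 0 in adult libraries, at least 16.2-fold higher than 3 counts over the adult group (edgeR adjusted p = 0.00991). Mllt3 (log2 -2.63, edgeR adjusted p = 2.18e-05), Ifitm1 (log2 -2.30, edgeR adjusted p = 5.67e-06) and Cd93 (log2 -1.62, edgeR adjusted p = 8.77e-05) were lower in newborn PMN-MDSC. Cd93 (log2 -1.83, edgeR adjusted p = 0.000192) and Bcl11a (log2 -1.68, edgeR adjusted p = 0.00396) were lower in newborn M-MDSC.

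Genes of later, granulocyte-monocyte progenitors were mostly higher in newborns: of 18 tested, 12 were called higher and 3 lower in PMN-MDSC, and 12 higher and 2 lower in M-MDSC. Shares over all genes were 27.1% higher and 20.5% lower in PMN-MDSC, and 15.9% and 14.3% in M-MDSC. The median log2 fold changes of the progenitor list were 2.54 and 2.17. Fcnb (log2 6.48) and Cebpe, a factor of the promyelocyte to myelocyte step (log2 5.70), were among the higher genes in PMN-MDSC, and Irf8, a monocyte and dendritic lineage factor, was lower there (log2 -2.36, edgeR adjusted p = 1.23e-09). Mpo, the myeloperoxidase of early granulocyte and monocyte precursors, averaged 1981 CPM in newborn and 61.0 CPM in adult M-MDSC (log2 5.06, edgeR adjusted p = 6.42e-07). Of 20 cell division genes, 18 were called higher in PMN-MDSC and 19 in M-MDSC, beside 27.1% and 15.9% of all genes. Summed over the 20, they reached 2422 to 3018 CPM in newborn and 582 to 790 CPM in adult PMN-MDSC. In M-MDSC they reached 3691 to 4384 CPM in newborns and 469 to 653 CPM in adults. The part of dividing or less mature cells in the levels of Kit, Myb and the other members was not tested.

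**Figure D5:**
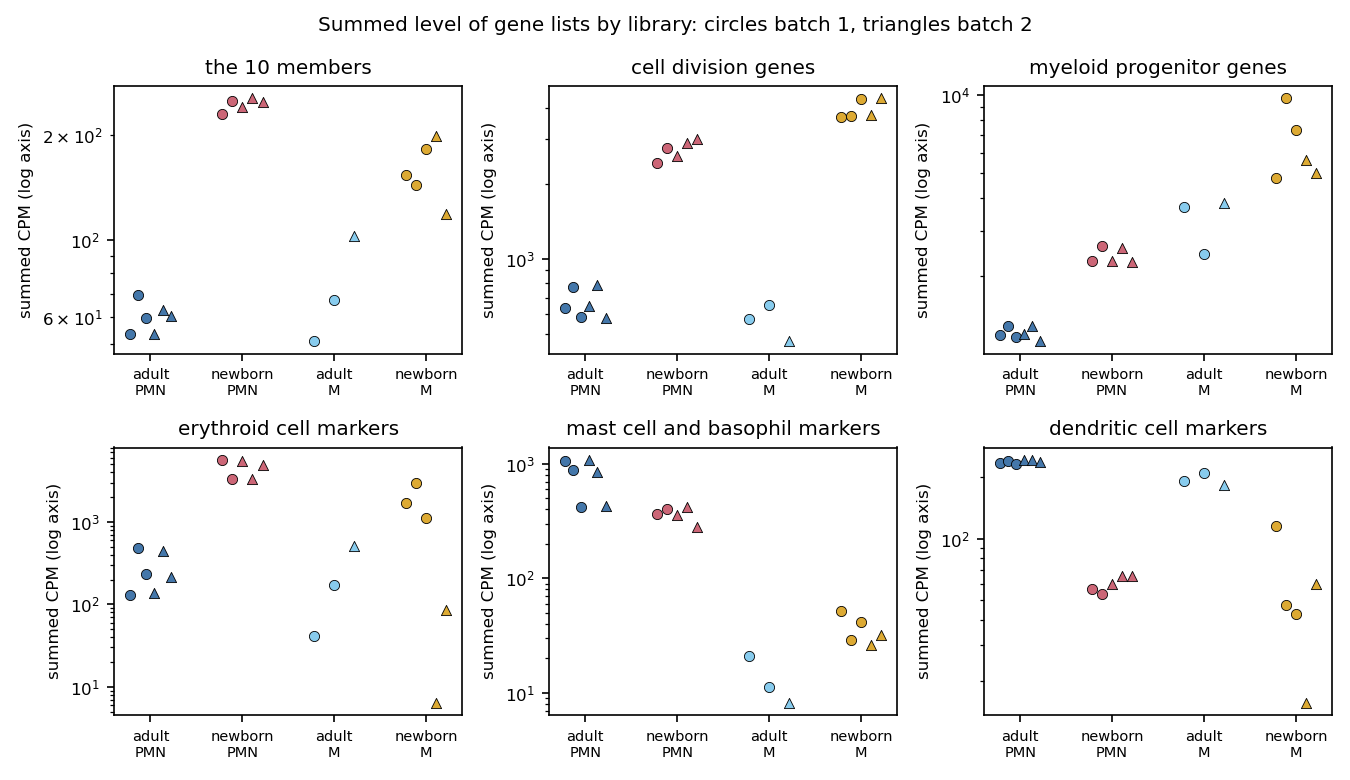
Each panel gives, for every library, the summed CPM (log axis) of the 10 members or of another list (cell division, myeloid progenitor, erythroid, mast cell and basophil, dendritic), with circles for batch 1 and triangles for batch 2. The members summed to 230.4 to 256 CPM in newborn PMN-MDSC against 53.6 to 69.3 CPM in adult ones, and the mast cell and basophil genes summed to 282 to 423 CPM (newborn) and 424 to 1089 CPM (adult) there.

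Markers of other cell types that make these genes were read from the same libraries. The 19 erythroid genes summed to 3299 to 5719 CPM in newborn and 129 to 483 CPM in adult PMN-MDSC. Of the 19, 17 were called higher there, beside 27.1% of all genes. The erythroid genes were thus higher in newborn than in adult PMN-MDSC, as were Kit, Myb and Erg. Within newborn PMN-MDSC, replicate 2 had the highest erythroid sum (5719 CPM) and the lowest Kit (36.7 CPM) and Myb (38.9 CPM). Replicate 38 had the lowest erythroid sum (3299 CPM) and held 52.1 CPM of Kit and 52.1 CPM of Myb. Erg lay between 117 and 121 CPM in that group. The part of erythroid RNA in these PMN-MDSC values was not tested. In newborn M-MDSC the erythroid genes spread from 6.38 CPM in replicate 77 to 2967 CPM in replicate 2. Only Aqp1, 1 of 19, was called higher in M-MDSC, beside 15.9% of all genes. Replicate 77, with the lowest erythroid sum, held 33.1 CPM of Kit, 5.67 CPM of Cd34, 6.38 CPM of Erg and 131 CPM of Myb, and the part of erythroid RNA in the M-MDSC values was not tested. The 10 megakaryocyte and platelet genes summed to 212 to 280 CPM in newborn and 133 to 178 CPM in adult PMN-MDSC. Of 5 tested, 2 were called higher there, beside 27.1% of all genes. The part of megakaryocyte and platelet RNA in the Erg and Gata1 values was not tested. In M-MDSC that list gave no call, beside 30.2% of all genes in either direction. It summed to 56.2 to 165 CPM in newborns and 108 to 131 CPM in adults.

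The 12 mast cell and basophil genes summed to 282 to 423 CPM in newborn and 424 to 1089 CPM in adult PMN-MDSC. Of the 3 tested, Prss34 was called higher and Hdc lower in newborn PMN-MDSC, and both higher in newborn M-MDSC. Over all genes, 27.1% were called higher and 20.5% lower in PMN-MDSC, and 15.9% and 14.3% in M-MDSC. In M-MDSC the list summed to 26.4 to 52.0 CPM in newborns and 8.18 to 20.8 CPM in adults. The number of listed genes at 0 was 8 in adult and 6 in newborn M-MDSC. Cpa3, Fcer1a, Mcpt4, Tpsb2 and Tpsab1 had no count in either M-MDSC group. Ms4a2, Mcpt8 and Prss34 had counts only in newborn M-MDSC, and Cma1 only in adult M-MDSC. The part of mast cell and basophil RNA in the Kit values was not tested. The 10 endothelial genes summed to 92.5 to 115 CPM in newborn and 178 to 234 CPM in adult PMN-MDSC, and to 45.6 to 83.9 CPM in newborn and 81.3 to 114 CPM in adult M-MDSC. The number of listed endothelial genes at 0 was 2 in adult and 1 in newborn PMN-MDSC, and 5 in adult and 2 in newborn M-MDSC. Emcn had no count in any library, and Tek had none in M-MDSC. Cldn5 had counts in the newborn but not the adult groups of both cell types. Cdh5 and Plvap had counts in newborn but not in adult M-MDSC. Of 3 endothelial genes tested, Pecam1, which leukocytes also make, was called lower in newborns in both cell types and none was called higher. Those calls stand beside 20.5% (PMN-MDSC) and 14.3% (M-MDSC) of all genes called lower. The part of endothelial RNA in the Erg values was not tested.

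Without the batch 1 PMN-MDSC libraries, the members called for age in PMN-MDSC were Kit, Erg and Myb, 3 of 9 as higher against 15.9% of 15926 genes higher and 7.59% lower (23.5% in either direction). In M-MDSC they were Kit, Erg, Myb and Adgrg1, 4 of 9 as higher against 9.04% higher and 8.7% lower (17.7% in either direction). No member was called for the difference of the age effects, where 6.08% of genes were. The cell type calls were again Kit and Erg in adults (7.79% of genes called lower and 15.1% in either direction) and Erg in newborns (19.3% and 27%).

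For each tested member, the genes most like it were sought among 12831 genes by the root mean square difference between centred log2 group means over the 4 groups. Nearest to Kit were Aspm (0.0560) and Cenpf (0.134), both genes of mitosis. Nearest to Myb were Zfp41 (0.0166) and Itpa-ps1 (0.0603), to Cd34 Mtfr2 (0.0885) and Traip (0.172), and to Adgrg1 Oip5 (0.162) and Lockd (0.193). Erg had no neighbour as close, with Sept5 (0.248) and 4930438A08Rik (0.270) the nearest. Flt3 was nearest to Amz1 (0.0890) and Lacc1 (0.113), Sox4 to Tfcp2l1 (0.0255) and Saa4 (0.0405), Meis1 to Dnaja3 (0.0143) and Rrp1 (0.0345), and Gata2 to Gm17068 (0.0622) and Lrrc29 (0.104). With only 4 groups, a small difference describes how alike the centred log2 group means are and nothing more.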

How the data were processed

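The labels describe total RNA libraries read as 50 bp single ends. The values are whole-number estimated counts per gene, deposited by the authors; the submitters' processing notes name RSEM 1.2.3, DESeq2 and build mm10, without their roles. For the aligner, annotation and strand setting, the sources used here give nothing. Coordinates and exon lengths came from GENCODE M21 (GRCm38), which held 96.6% of the gene identifiers.

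Counts were scaled by TMM and tested with edgeR 4.0.16 (glmQLFit, glmQLFTest; limma 3.58.1, R 4.3.3) in 1 fit over all 19 libraries with group and batch. Genes were kept by filterByExpr per group, which left 12943 of 38887, with 14 residual degrees of freedom. A call is a Benjamini-Hochberg adjusted p under 0.05 over all genes tested, and SE is the log2 fold change over the square root of F. CPM is relative to the TMM-scaled library, and FPKM is CPM per kilobase of exon. The script was tested on simulated counts. Intervals and limits of 3 counts cover counting error only.

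Alternatives were no batch term, each batch alone, the compared groups alone, upper-quartile scaling, a replicate block, other filters, DESeq2 1.42.0, limma-voom, DESeq2 size factors, no batch 1 PMN-MDSC libraries, and each library left out. The members, lists and rules were chosen with earlier results of these data known. Named were all members, their main ligands and partners, 3 sort markers, up to 3 called genes per list and age comparison (smallest adjusted p first, 1 CPM in either group), up to 2 in the cell type comparisons, and the 2 genes most like each member. One partner gene that the rule names is not reported here.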

Additional observations from a re-analysis of the deposited data

Results flagged for a closer look

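In groups of 4 or more libraries, 30 combinations of member and group were checked for a library far from the others, by the gap to the nearest library over the range of the group. Chance gives about 1 in 20, or 1.5 here, and 2 were found, both for Hoxa9. Where every library but 1 holds 0, the gap ratio is 1 whatever the count, so that rate does not apply to these 2. In adult PMN-MDSC, replicate 3 held 0.600 CPM of Hoxa9 (1 count) while the other 5 libraries held 0, a gap ratio of 1 against a critical value of 0.625. In newborn M-MDSC, replicate 79 held 0.805 CPM (20 counts) while the other 4 held 0, a gap ratio of 1 against 0.710. In a batch 1 library, a level of 0.805 CPM lies below the limit of 3 counts.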

How the results depend on the processing

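Over all comparisons, 138 of 154 alternative counts of called members and 140 of 154 counts over all genes stayed within 1.5 times the reported count. Of 1328 log2 fold changes of members, 1244 kept direction and side of the threshold, 16 lost the call, 44 gained one and 24 changed sign, none of them called. The causes were not tested. Batch 1 libraries held few counts of Hoxa9, Cd34 and Gata2, and adult M-MDSC held few of Erg and Adgrg1. Low values were not confined to batch 1: adult M-MDSC replicate 28, of batch 2, held 0 counts of Erg, Cd34 and Adgrg1. The replicate block called 5, 5, 0, 2 and 1 members (age in PMN-MDSC, age in M-MDSC, difference of age effects, cell type in adults, cell type in newborns), adding Cd34 in PMN-MDSC. In the same order it called 6059, 3690, 2360, 4082 and 5572 of the 12943 genes. Same-numbered libraries correlated at -0.0472 to 0.182 over 12 pairs, most of which join adult to newborn libraries. The highest values joined adult PMN-MDSC to adult M-MDSC, at 0.176 for replicate 1 and 0.182 for replicate 3. Newborn PMN-MDSC and M-MDSC gave -0.0472 for replicate 2 and 0.00138 for replicate 3. Whether the numbers pair libraries is not known, and the main fit did not pair them.

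On the compared groups alone, 8, 2, 1 and 2 members were called (PMN-MDSC age, M-MDSC age, adults, newborns) and 9548 and 1267 genes for age in PMN-MDSC and M-MDSC. DESeq2 called 7 members and 6848 genes for age in PMN-MDSC, and upper-quartile scaling called 2 members and 5462 genes in newborns. Batch 1 alone called 0 members in adults and 2 in newborns, and 3760 (PMN-MDSC age), 408 (difference of age effects), 1368 (adults) and 3231 (newborns) genes. Batch 2 alone called 1 member (Adgrg1) and 4254 genes for the difference of age effects and 6457 genes in adults, both with 1 adult M-MDSC library assumed to vary like the other groups. Limma-voom called 3580 genes for that difference and 5901 in adults. Without the batch 1 PMN-MDSC libraries, 3740 (PMN-MDSC age), 968 (difference) and 2407 (adults) genes were called. Leaving out 1 library gave 4 to 6 members in PMN-MDSC, 4 to 6 in M-MDSC, 0 to 1 for the difference, 0 to 4 in adults (0 without adult M-MDSC replicate 28, 4 without newborn M-MDSC replicate 77) and 1 to 2 in newborns. The genes called in these fits were, in the same order, 5459 to 7104, 3450 to 4340, 2021 to 2905, 2250 to 5036 and 4777 to 6328. Among all genes, the median PMN-MDSC age difference shifted by -0.17 with DESeq2 size factors and -0.24 with upper-quartile scaling.

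Log2 values that changed sign were, for the difference of age effects, Flt3 at 1.94 and, in newborns between cell types, Kit at 0.10 and, in adults, Cd34 at 0.36 (batch 1 alone); Meis1 at -0.27 and Erg at 5.08 for the difference, Flt3 at -1.68 in newborns and Meis1 at -0.33 for age in M-MDSC (batch 2 alone); Sox4 at 0.062 for the difference (upper-quartile scaling); Meis1 at -0.00825 for age in M-MDSC (DESeq2); Meis1 at -0.30 there, Erg at 0.00970 for the difference and Flt3 at -1.52 in newborns (limma-voom); and Flt3 at -0.054 in newborns (without batch 1 PMN-MDSC libraries). Leaving out 1 library, the difference of age effects ranged from -1.21 to 0.58 for Flt3, -1.85 to 4.76 for Erg, -0.45 to 0.17 for Sox4 and -0.00361 to 0.47 for Myb, and the adult difference between cell types from -5.32 to 0.40 for Cd34 and -0.0697 to 0.419 for Meis1.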
